A study of Drosophila melanogaster with 17 samples.

Results

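Ribosome-bound RNA from larval axonal sections was compared between larvae in which OK371-GAL4 drove a tagged ribosomal protein and larvae without a driver. The comparison rests on 6 of the 17 samples of the series, 3 OK371-GAL4/UAS-Flag-GFP-RpL10 samples (TRAP) and 3 UAS-Flag-GFP-RpL10/+ samples (control), all taken as axonal sections at the L3 stage. All genes of these samples were included, and 16702 of the 16977 listed genes had at least 1 count in at least 1 of them and were tested. Both genotypes carry the tagged transgene, which is expressed to some extent without GAL4 according to the study, so the controls measure the RNA recovered through leaky tag expression and through binding to the beads. Controls came from a cross to w1118 males and TRAP larvae from a cross to OK371-GAL4 males. The paternal genome therefore changed together with the driver, and they cannot be told apart. OK371-GAL4 is an enhancer trap at VGlut and is used as a driver for glutamatergic neurons, among them the motor neurons (MNs). Each sample pooled several wandering larvae that were dissected as fillets. Salivary glands and other internal organs were pulled off, and the anterior end with the ventral nerve cord and the posterior end were cut away, so the sections still held body wall muscle, cuticle, epidermis and glia beside the MN axons. The 6 samples carry the same sequencing batch label.

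In translating ribosome affinity purification (TRAP), ribosomes that contain the tagged subunit are pulled down with an anti-Flag antibody and the mRNAs on them are sequenced. MN cell bodies lie in the ventral nerve cord and their axons run to the body wall muscles, where they release glutamate that VGlut, the vesicular glutamate transporter, loads into vesicles. Axons hold a small pool of ribosomes, and mRNAs for ribosomal proteins and mitochondrial proteins are among those known from axons of vertebrates.

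Larval totals ran from 41211154 to 88324615 counts, and 3 counts corresponded to between 0.0298 and 0.105 CPM (counts divided by the library total and by TMM scaling factors, which lay between 0.515 and 1.34). The number of genes at 0 ran from 782 in TRAP replicate 1 to 6086 in TRAP replicate 2, and it was 5504 in control 1. The biological coefficient of variation was 1.07. The TRAP replicates were thus far apart from each other, and the value of every replicate is given for the main transcripts below. RpL10 itself does not check the labels, since reads of the transgene and of the endogenous gene cannot be told apart. It was at 746, 340 and 368 CPM in controls 1 to 3 and at 710, 1987 and 808 CPM in TRAP replicates 1 to 3, and these ranges overlapped. VGlut, the locus of the driver, was clearly above the controls in TRAP replicate 1 only, as described further on.

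At an adjusted p-value under 0.05 (edgeR quasi-likelihood test, Benjamini-Hochberg), 39 genes were higher in TRAP samples, which is 0.234% of the genes tested, and 2 were lower (0.012%). Of the 39, 9 were on the list of salivary gland genes and 3 on that of larval cuticle genes, and none was on a list of neuronal genes. Before adjustment 690 (4.13%) were higher and 431 (2.58%) lower at a p-value under 0.05. All TRAP samples lay above all controls in 757 genes (4.53%) and below all of them in 962 (5.76%). The 39 increases had log2 fold changes between 2.26 and 11.56 with a median of 6.44, against 0.25 for all genes tested. They comprised 36 protein-coding genes and 3 non-coding RNAs, and 12 of them overlap another gene in the annotation. The strand setting of the counting is not stated, so reads in such overlaps cannot be assigned. The number of calls changed with the filter on low counts, the tool, the scaling and the samples. With only the genes that had a count in all 6 samples, the rule that the study's methods give, 0 genes passed in either direction, at a smallest adjusted p-value of 0.105. Of the 39 genes, 34 were still in that smaller test and all 34 kept an unadjusted p-value under 0.05. With edgeR's own filter, 2 passed, mthl8 and CG31698 (chosen after their values were seen). DESeq2, the tool the study used, gave 226 higher (2.03% of the 11115 genes it adjusted) and 39 lower (0.351%), and 32 of its 226 were among the 39.

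**Figure D1:**
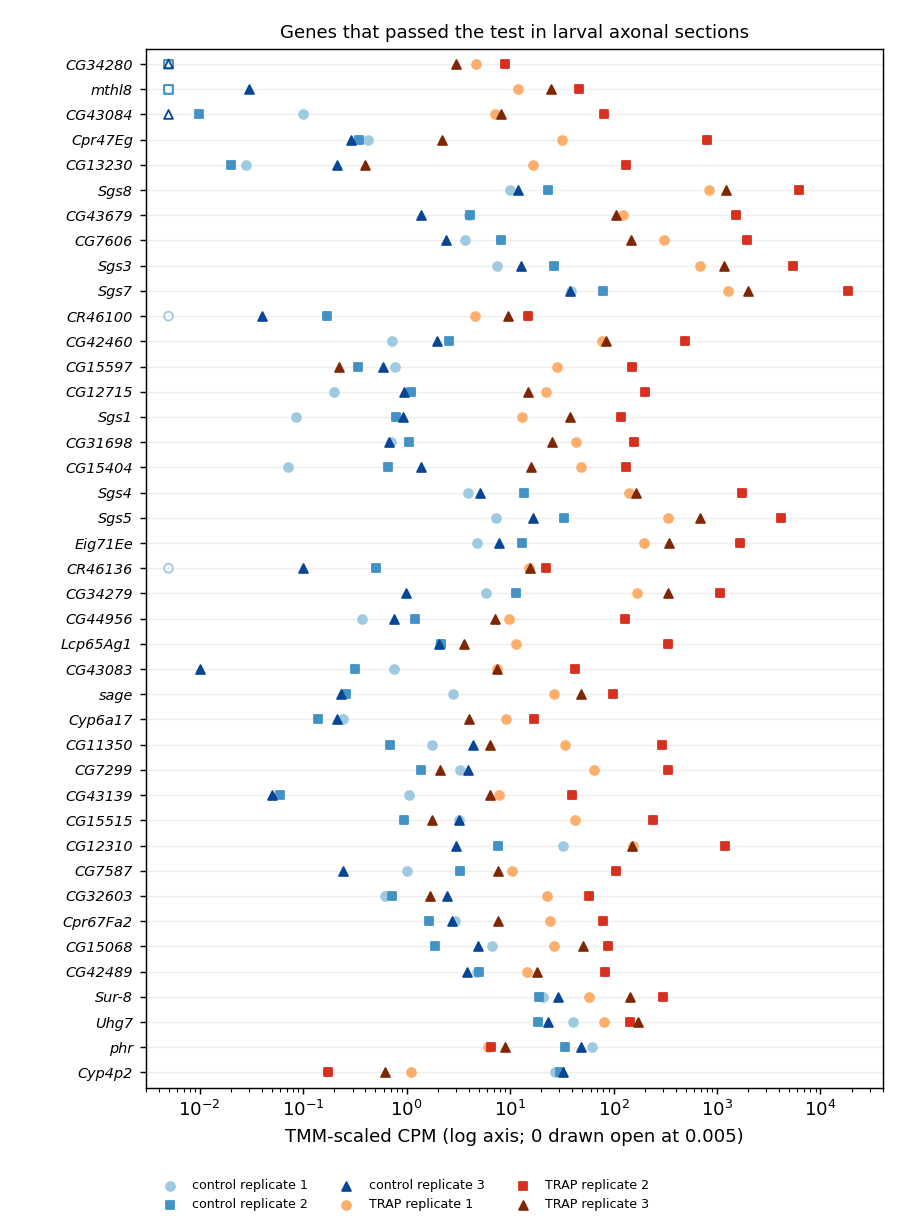
TMM-scaled CPM on a log axis for the 39 genes higher and the 2 genes lower in TRAP samples (edgeR adjusted p-value under 0.05), 1 point per sample, ordered by log2 fold change. Squares for TRAP replicate 2 lie farthest to the right in 38 of the 39 upper genes, and 35 of the 39 have all 3 TRAP points to the right of all 3 control points.

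Glue proteins are made by the larval salivary gland late in the L3 stage and fix the pupa to its substrate. Of 21 salivary gland genes listed, 9 were higher and 0 lower, with a list median log2 fold change of 2.64 (interquartile range 0.95 to 6.49) against 0.25 for all genes. The 9 were Sgs1, Sgs3, Sgs4, Sgs5, Sgs7 and Sgs8, the related CG7587 (now Sgs5bis), Eig71Ee and sage. In the fits that left out 1 sample, 8 or 9 of the list passed, except without control replicate 1, where 3 did. Lost there were Sgs3 (edgeR adjusted p = 0.0632), Sgs8 (0.0618), Sgs7 (0.227), Sgs4 (0.0924), Sgs5 (0.104) and CG7587 (0.298). Sgs3, one of the main glue proteins, was at 7.41, 26.7 and 12.6 CPM in controls 1 to 3 and at 680, 5417 and 1158 CPM in TRAP replicates 1 to 3. All TRAP samples were therefore above all controls, but replicate 2 stood several times above the others. The log2 fold change of Sgs3 was 7.28 (standard error (SE) 1.03, edgeR adjusted p = 0.00119). Its neighbour Sgs7 was at 39.1, 78.9 and 37.7 CPM in controls and at 1275, 18483 and 1989 CPM in TRAP samples (log2 fold change 7.13, SE 1.28, edgeR adjusted p = 0.015). Sgs1, a large mucin-like glue protein on another chromosome arm, was at 0.0849, 0.785 and 0.923 CPM in controls and at 13.1, 119 and 37.7 CPM in TRAP samples, again without overlap (log2 fold change 6.55, SE 0.87, edgeR adjusted p = 0.000945). Sgs4 (log2 fold change 6.50) overlaps dnc.

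A regulator of the gland was higher as well. sage, a basic helix-loop-helix factor found in the salivary gland, was at 2.83, 0.259 and 0.231 CPM in controls 1 to 3 and at 26.4, 99.7 and 48.6 CPM in TRAP replicates 1 to 3. There was no overlap, the log2 fold change was 5.73 (SE 0.87, edgeR adjusted p = 0.00261), and sage passed in each of the 6 fits that left out 1 sample. fkh, the FoxA factor that the gland needs for its development, was at 0.0141, 1.11 and 0.983 CPM in controls and at 2.17, 7.57 and 2.24 CPM in TRAP samples and did not pass (log2 fold change 2.50, edgeR adjusted p = 0.809). CrebA, a factor for secretory genes that other tissues also express, was at 70.9, 52.8 and 71.5 CPM in controls and at 110, 123 and 88.2 CPM in TRAP samples (log2 fold change 0.71, edgeR adjusted p = 0.808). The gland genes that did not pass also include ng1 to ng4, PH4alphaSG1, PH4alphaSG2, eyg and toe.

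Scaled to the totals alone, the 7 glue genes took 0.00679%, 0.0205% and 0.0112% of the counts of controls 1 to 3 and 0.441%, 1.87% and 0.519% of those of TRAP replicates 1 to 3. The lowest TRAP share was 0.439% and the highest control share 0.0208% at the ends of their 95% exact binomial intervals, which cover counting error only. TRAP replicates 1 and 3 alone were thus also above all controls. The make-up of the gland transcripts was similar in the TRAP replicates, with Sgs7 taking 34.3%, 48.3% and 34.3% of the counts of the whole gland list, Sgs8 22.4%, 16.2% and 21.0%, and Sgs3 18.3%, 14.2% and 20.0%. In controls CrebA, at 35.1%, 19.4% and 35.4%, and Sgs7, at 19.4%, 28.9% and 18.7%, were the leading ones. Since glands were removed by hand, a difference between samples in gland tissue left behind, in tag expression there and in RNA per cell cannot be told apart in these bulk samples.

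Several other increases lay next to the glue genes or next to each other. Of the 39 genes, 16 lay in 6 runs of neighbours that were at most 5000 bases apart. Sgs8, Sgs7 and Sgs3 form one such run on chromosome 3L of BDGP6 (11508967 to 11513402), and CG7587, Sgs5 and CG7606 form another on 3R (17594386 to 17598453). CG7606, which has no characterised role in the files, was at 3.66, 8.23 and 2.38 CPM in controls and at 306, 1964 and 148 CPM in TRAP samples. It passed in all 6 leave-one-out fits (log2 fold change 7.40, SE 0.99, edgeR adjusted p = 0.000945). On 3L the pair CG43083 and CG43084 lies beside Eig71Ee, a late gene of the 71E ecdysone puff. Eig71Ee was at 4.82, 12.9 and 7.87 CPM in controls and at 197, 1685 and 344 CPM in TRAP samples (log2 fold change 6.44, SE 0.86, edgeR adjusted p = 0.000945). The rest of that puff stayed low. Of its 11 genes, Eig71Ee was the only one that passed, and Eig71Ea, with the next highest level in TRAP samples, was at 0.0424, 0.0497 and 0.311 CPM in controls and at 0.409, 7.68 and 1.03 CPM in TRAP samples (edgeR adjusted p = 0.718). By chromosome arm, 13 of the 39 were on 3L (0.39% of its tested genes), 14 on 3R (0.345%), 5 on 2L (0.152%), 4 on 2R (0.12%) and 3 on X (0.119%).

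mthl8 had the smallest p-value of all genes tested (edgeR adjusted p = 2.15e-05). It encodes a member of the Methuselah family of G-protein-coupled receptors and lies on chromosome 3L of BDGP6 from 22428 to 26308, with no overlapping gene. It had 0, 0 and 3 counts in controls 1 to 3 and 825, 1342 and 1007 counts in TRAP replicates 1 to 3. In CPM the TRAP values were 12.0, 46.8 and 24.8. The ratio of the group means was 2779, with an interval from 951 to 13478 that covers the counting error of the 3 control counts only (exact Poisson). It passed in all 6 leave-one-out fits, and none of the leg samples, analysed for comparison, held a count of it. The family did not share this pattern. Of 16 Methuselah-like receptors mthl8 was the only one that passed, and the list median was 0.05. mthl3, the next by p-value, was at 14.7, 12.8 and 14.7 CPM in controls and at 34.1, 31.6 and 22.2 CPM in TRAP samples (log2 fold change 1.06, edgeR adjusted p = 0.669).

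A further set of increases encodes small or uncharacterised proteins that were near 0 in the controls. CG34280 had no count in any control and was at 4.70, 9.0 and 2.98 CPM in TRAP samples, so it was at least 163-fold higher (floor of 3 counts per control library). It overlaps the end of CG34279, which in turn overlaps Sur-8, a scaffold protein of Ras signalling, and all 3 of these neighbours passed. CG31698 was at 0.707, 1.04 and 0.672 CPM in controls and at 43.2, 159 and 25.4 CPM in TRAP samples. It passed in each leave-one-out fit (log2 fold change 6.54, SE 0.68, edgeR adjusted p = 8.4e-05), as did CG15404, its neighbour on 2L (log2 fold change 6.53). CG42460 was at 0.721, 2.60 and 1.95 CPM in controls and at 76.9, 494 and 84.7 CPM in TRAP samples (log2 fold change 6.96, SE 0.81, edgeR adjusted p = 0.000321). CG43084, at 0.0990, 0.00994 and 0 CPM in controls and 7.18, 80.3 and 8.17 CPM in TRAP samples, passed in all 6 fits as well. In CG34280, CG31698, CG42460 and CG43084 all TRAP samples lay above all controls, with TRAP replicate 2 the highest. The remaining members by the naming rule, CG13230, CG43679 and CG12715, overlap CG13229, Sytbeta and rad and stay uncertain for that reason. CG15068 (now BomS6, a short immune-induced Bomanin peptide) was at 6.72, 1.88 and 4.92 CPM in controls and at 26.3, 87.9 and 50.7 CPM in TRAP samples (log2 fold change 3.61, SE 0.56, edgeR adjusted p = 0.00325), and Uhg7, a host gene of small nucleolar RNAs, overlaps RpL23A. CG34280, CG34279, Sur-8, CG15068 and Uhg7 fall outside the naming rule and were chosen after their values were seen.

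Cuticle proteins, which the epidermis secretes to build the larval exoskeleton, gave 3 increases and 0 decreases among 123 genes, with a median of 1.22. Without TRAP replicate 1 the median was 0.01 while 12 genes passed. Without control replicate 1 none passed, without TRAP replicate 2 only 1 did, and the other fits without 1 sample gave 4 to 7. All 3 were highest in TRAP replicate 2, without which Cpr67Fa2 (edgeR adjusted p = 0.134) and Lcp65Ag1 (0.598) were lost. Cpr47Eg was at 0.424, 0.348 and 0.291 CPM in controls and at 31.5, 807 and 2.22 CPM in TRAP replicates 1 to 3, so replicate 3 lay close to the controls. Cpr67Fa2 was at 2.93, 1.64 and 2.75 CPM in controls and at 24.3, 79.7 and 7.71 CPM in TRAP samples (log2 fold change 3.93, SE 0.68, edgeR adjusted p = 0.0106). Lcp65Ag1 was at 2.11, 2.15 and 2.08 CPM in controls and at 11.3, 337 and 3.57 CPM in TRAP samples (log2 fold change 5.79, SE 1.13, edgeR adjusted p = 0.0275). Lcp65Ag1 and Cpr67Fa2 have close copies beside them, and the way shared reads were counted is not stated, so both are uncertain. The abundant structural protein Lcp1 ranged from 23693 to 68722 CPM in controls and from 58667 to 213730 CPM in TRAP samples and overlapped (log2 fold change 1.49, edgeR adjusted p = 0.895). Of all counts, the whole list took 15.2 ± 6.82% in the 3 controls and 25.9 ± 7.95% in the 3 TRAP samples (SD).

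Cytochrome P450 genes moved in both directions, and the list of 84 held 1 increase and 1 of the 2 decreases. Cyp6a17, which in flies is linked to temperature preference, was at 0.240, 0.139 and 0.211 CPM in controls and at 9.08, 16.9 and 3.99 CPM in TRAP samples (log2 fold change 5.65, SE 1.07, edgeR adjusted p = 0.0232). Cyp4p2, which overlaps hig, was at 27.1, 30.4 and 32.1 CPM in controls and at 1.11, 0.174 and 0.615 CPM in TRAP samples, well below. The same 2 genes also passed in legs, where DIP-gamma-GAL4 was the driver, with log2 fold changes of 3.42 (edgeR adjusted p = 0.000517) and −3.31 (edgeR adjusted p = 0.00453). Leg controls came from a cross to w1118 males too, so driver and paternal genome cannot be told apart in either tissue. Cyp6a2, an enzyme known for insecticide metabolism, was at 12.1, 5.84 and 4.90 CPM in larval controls and at 0.467, 0.0349 and 0 CPM in TRAP samples without overlap. It did not pass (log2 fold change −5.43, SE 1.45, edgeR adjusted p = 0.268), although DESeq2 called it (adjusted p = 0.00232) and it was lower in legs too (log2 fold change −1.59, edgeR adjusted p = 0.0363). Of the 79 genes of the list tested in legs, 2 were higher and 2 lower. The share of all leg genes that passed is not at hand, so these counts have no background beside them. The other decrease was phr, which encodes a photolyase that repairs ultraviolet damage and overlaps Prosalpha1. It was at 62.0, 33.8 and 49.0 CPM in controls and at 6.09, 6.52 and 8.96 CPM in TRAP samples.

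The replicates contributed unequally to these increases. Of the 39 genes, 38 had their highest value in TRAP replicate 2 (16.2% of all genes tested did) and 1 in TRAP replicate 3 (9.33%). None had it in TRAP replicate 1, which was the highest sample for 37.9% of all genes. The median ratio of TRAP replicate 2 to TRAP replicate 1 over the 39 genes was 6.31, and that of TRAP replicate 3 to TRAP replicate 1 was 0.98. In 17 of the 39 genes TRAP replicate 3 was under 10 CPM. TRAP replicate 2 has the smallest scaling factor, and with library size as the only scaling it was the highest sample for 31 of the 39. The 39 genes are short, with a median exonic length of 633 nt against 1493.5 nt for all genes tested. Over the fits that left out 1 sample, 14 of the 39 passed in all 6, 10 in 5, 14 in 4 and 1 in fewer.

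No neuronal transcript passed with all 6 samples, and most were highest in TRAP replicate 1. VGlut was at 0.0566, 1.69 and 0.271 CPM in controls 1 to 3 and at 31.9, 1.08 and 0.320 CPM in TRAP replicates 1 to 3. TRAP replicates 2 and 3 lay within the range of the controls. The log2 fold change was 4.04 (SE 1.43, edgeR adjusted p = 0.546), and it was 0.11 without TRAP replicate 1. Without control replicate 2 VGlut passed (log2 fold change 6.05, edgeR adjusted p = 0.0166), but not in the other 5 fits without 1 sample. Proc, a peptide transmitter of larval MNs, was at 0.0566, 1.59 and 0.492 CPM in controls and at 69.5, 0.105 and 0.148 CPM in TRAP samples (log2 fold change 5.02, edgeR adjusted p = 0.453). Proc passed in 4 of the 6 fits without 1 sample (edgeR adjusted p between 7.46e-05 and 0.0302), all of which kept TRAP replicate 1, and had a log2 fold change of −2.46 without that replicate. The transcription factors of MN identity showed the same order at low levels. exex was at 4.71 CPM, eve at 5.77 CPM and Lim3 at 15.5 CPM in TRAP replicate 1, and the highest other TRAP values were 0.123, 0.349 and 6.55 CPM. Of 11 MN identity genes 0 passed, 2 had an unadjusted p-value under 0.05, and 9 had their highest value in TRAP replicate 1. The list median was 1.49, and 0.02 without TRAP replicate 1. In those 4 fits, without control replicate 2 or 3 or TRAP replicate 2 or 3, 1 or 2 of the list passed, and 0 in the other 2.

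Pan-neuronal genes had a similar order of samples. elav, an RNA-binding protein found in neurons, was at 3.49, 5.22 and 6.28 CPM in controls and at 24.4, 4.33 and 3.35 CPM in TRAP samples. The vesicle protein Syt1 was at 7.60, 8.86 and 8.08 CPM in controls and at 58.3, 1.78 and 8.42 CPM in TRAP samples, and brp, the scaffold of the presynaptic active zone, was at 0.0990, 3.28 and 3.60 CPM and at 40.0, 0.558 and 8.81 CPM. For nSyb, the vesicle SNARE, the TRAP values were 11.1, 0.419 and 1.75 CPM. futsch, a microtubule-associated protein of axons, was at 0.325, 7.05 and 5.59 CPM in controls and at 48.1, 0.803 and 3.59 CPM in TRAP samples. All of these were highest in TRAP replicate 1. In TRAP replicates 2 and 3 they fell among the controls or below them, except for brp in TRAP replicate 3. Of 19 pan-neuronal genes 0 passed, 4 had an unadjusted p-value under 0.05, and 16 were highest in TRAP replicate 1. Their summed level was 188, 421 and 439 CPM in controls and 751, 118 and 238 CPM in TRAP samples. Rbp9 and Ank2 made up much of the control sums and went the other way. Rbp9 was at 94.5, 101 and 112 CPM in controls and at 75.8, 38.4 and 66.3 CPM in TRAP samples (log2 fold change −0.77, edgeR adjusted p = 0.806). Ank2 was at 29.4, 161 and 132 CPM in controls and at 87.6, 7.96 and 49.8 CPM in TRAP samples (log2 fold change −1.15, edgeR adjusted p = 0.808). The list median of 1.48 became −0.67 when TRAP replicate 1 was left out. Of 33 axon guidance and adhesion genes 0 passed and 23 were highest in TRAP replicate 1, with DIP-alpha, a cell-surface protein of MNs, at 0.877, 1.80 and 2.73 CPM in controls and at 49.2, 1.01 and 4.75 CPM in TRAP samples (edgeR adjusted p = 0.357). Of 28 synaptic vesicle and release genes 0 passed and 18 were highest in TRAP replicate 1. fne, a relative of elav and the pan-neuronal gene with the smallest p-value, was at 1.17, 7.87 and 6.45 CPM in controls and at 91.3, 18.4 and 6.70 CPM in TRAP samples, so that TRAP replicate 2 was also above the controls (log2 fold change 2.91, SE 0.78, edgeR adjusted p = 0.268). It passed in the same 4 fits as Proc. Leaving out TRAP replicate 2, control 2 or control 3 let 2 of the 19 pan-neuronal genes pass, and leaving out TRAP replicate 3 let 1 pass.

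**Figure D2:**
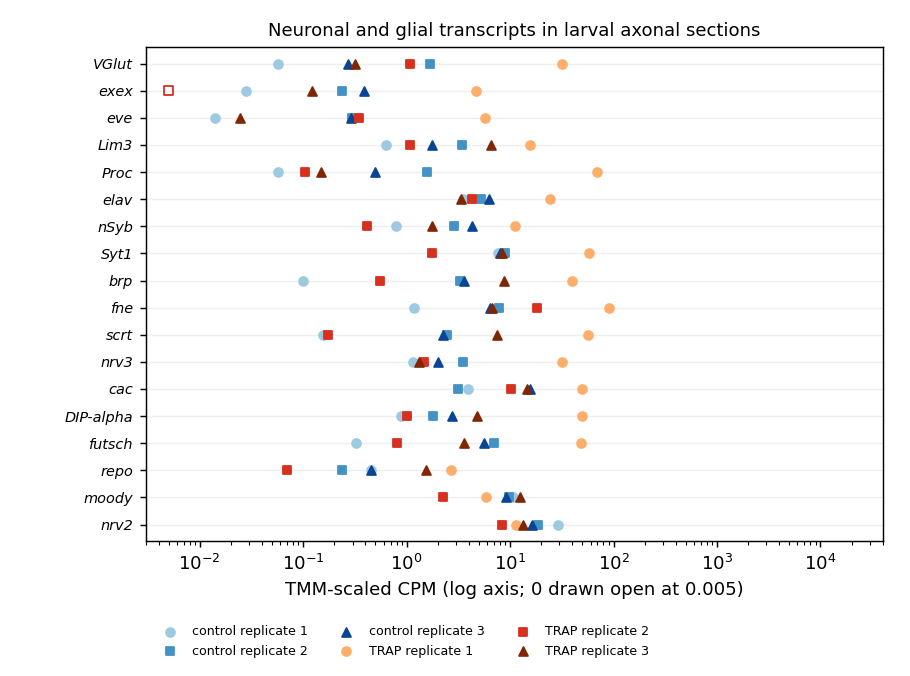
TMM-scaled CPM on a log axis for MN, pan-neuronal, axonal and glial transcripts, 1 point per sample. The circle of TRAP replicate 1 lies to the right of every other point for the neuronal genes, with VGlut at 31.9 CPM against at most 1.69 CPM elsewhere, and fne also has TRAP replicate 2 above the controls. Among the glial genes repo has the same sample highest (2.69 CPM), and moody and nrv2 do not.

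TRAP replicate 1 was also the highest sample for many other low-level genes. Among the 1043 genes with a control mean of 0.5 to 1 CPM, it was the highest sample for 57.6%, against 8.72% for TRAP replicate 2 and 6.62% for TRAP replicate 3. The median level in that class was 2.35 CPM in TRAP replicate 1 and between 0.0349 and 0.993 CPM in the other samples, with a 95th percentile of 15.7 CPM in TRAP replicate 1. Above 100 CPM it was the highest sample for 0.734% of genes. Of 230 genes of chemosensory receptors and odorant-binding proteins, 149 were highest in TRAP replicate 1, and their median went from 0.84 to −1.29 without it. VGlut, at 31.9 CPM, lay above the 95th percentile that TRAP replicate 1 shows for its class of control level. Proc, elav, Syt1, brp, futsch, DIP-alpha and fne also lay above that of their classes. In contrast, exex (4.71 CPM) and eve (5.77 CPM) lay below that of theirs (9 CPM). Lim3 (15.5 CPM) and nSyb (11.1 CPM) lay below 21.9 CPM, that of their class. The part of this shift toward low-level genes in the neuronal values was not tested.

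**Figure D3:**
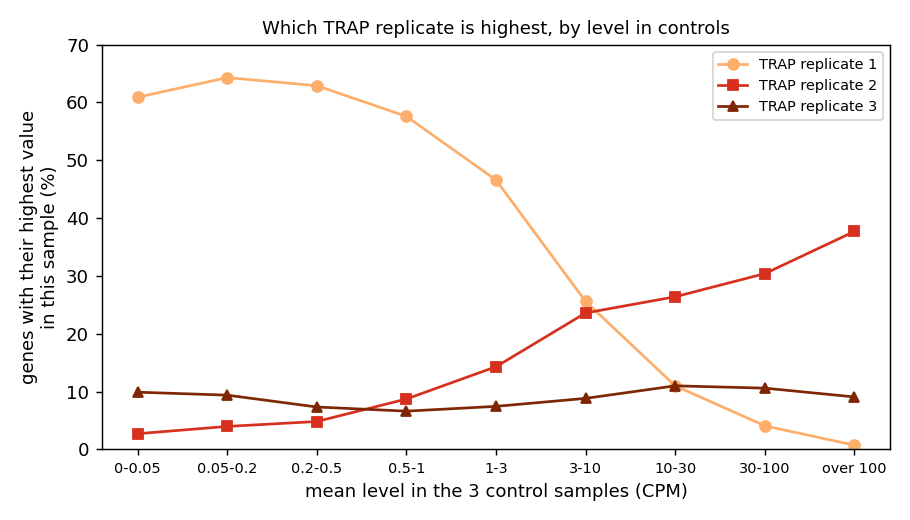
Share of genes (percent) whose highest value among the 6 samples is in each TRAP replicate, by mean level in the 3 controls in CPM. TRAP replicate 1 holds the highest value for 57.6% of genes between 0.5 and 1 CPM and for 0.734% of genes above 100 CPM, while the share of TRAP replicate 2 rises to 37.7% there.

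Ribosomal protein mRNAs mostly had positive fold changes, with medians of similar size in both subunits, and 0 of them passed. All 54 large-subunit genes were positive (log2 fold changes of 0.06 to 2.94). In the small subunit 38 of 39 were, over a range of −5.77 to 3.77. The median log2 fold change was 1.59 for 54 large-subunit genes (interquartile range 1.31 to 1.87) and 1.64 for 39 small-subunit genes (1.43 to 2.01). In the large subunit 39 and in the small subunit 29 had an unadjusted p-value under 0.05. As a share of counts, large-subunit genes took 1.79%, 0.943% and 1.40% in controls 1 to 3 and 3.36%, 2.71% and 3.0% in TRAP replicates 1 to 3, so no TRAP sample reached down to the highest control. RpL32, the gene with the smallest p-value of the large subunit, was at 221, 76.0 and 103.9 CPM in controls and at 736, 1734 and 612 CPM in TRAP samples (log2 fold change 2.94, SE 0.66, edgeR adjusted p = 0.0897). RpS21, that of the small subunit, was at 119, 40.9 and 49.4 CPM in controls and at 284, 753 and 337 CPM in TRAP samples (log2 fold change 2.71, SE 0.59, edgeR adjusted p = 0.0709). Both showed their highest value in TRAP replicate 2, as did 47 of the 54 and 34 of the 39. Without TRAP replicate 1, 13 large-subunit and 11 small-subunit genes passed, and with DESeq2 it was 29 and 26. Ribosomal proteins of the mitochondrion, 73 genes, had a median of 0.34 and 53 translation factors one of 0.12, and 0 of either list passed.

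Short genes as a class had positive fold changes as well. Where the higher group averaged 10 CPM or more, the 252 genes of up to 600 nt that do not encode cytoplasmic ribosomal proteins had a median log2 fold change of 0.83, and 72 of them had an unadjusted p-value under 0.05 and a positive fold change. The median was 0.32 for 669 such genes of 600 to 1000 nt, −0.15 from 1000 to 2000 nt, −0.33 from 2000 to 4000 nt and −0.07 above. The difference between short and long genes was steepest in TRAP replicate 2, in which the shortest class was 1.33 above the mean of the 6 samples on the log2 scale and the longest 0.59 below (−0.59). Controls 2 and 3 lay on the other side in the shortest class, at −0.53 and −0.79. The share of the length difference in the ribosomal protein values was not tested.

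**Figure D4:**
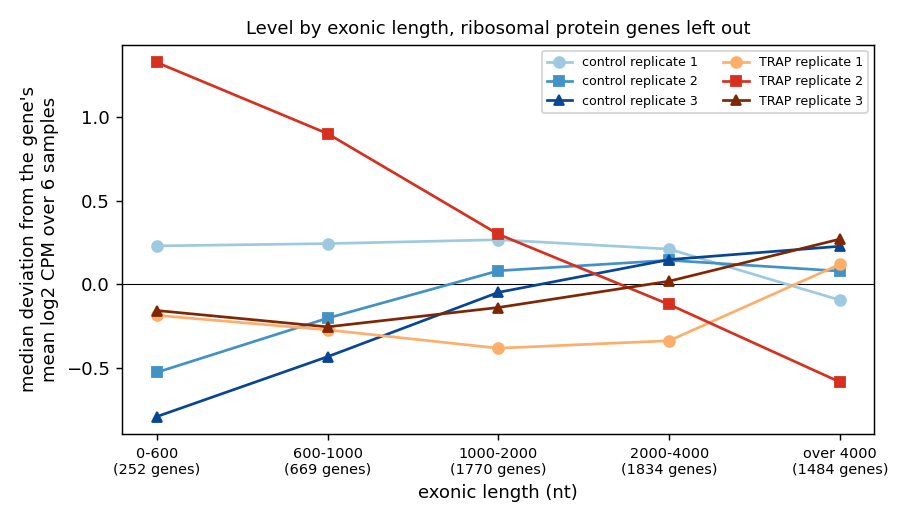
Median deviation of each sample from a gene's mean log2 level over the 6 samples (offset of 0.5 CPM), by exonic length, for genes averaging 10 CPM or more in the higher group, without cytoplasmic ribosomal protein genes. TRAP replicate 2 falls from 1.33 in the shortest class to −0.59 in the longest, and controls 2 and 3 start at −0.53 and −0.79.

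Transcripts of mitochondria gave no call with all 6 samples. Among 35 genes of the mitochondrial genome 12 had an unadjusted p-value under 0.05, all higher, and 30 had their highest value in TRAP replicate 3. mt:ND3, a subunit of complex I, was at 2.31, 4.24 and 7.76 CPM in controls and at 10.9, 8.62 and 41.7 CPM in TRAP samples (log2 fold change 2.10, edgeR adjusted p = 0.453). The list median of 1.73 went to 0.46 without TRAP replicate 3. Of these 35, 2 passed without control replicate 2, 4 without control replicate 3, 5 without TRAP replicate 1 and 4 without TRAP replicate 2. The nuclear genes of oxidative phosphorylation, 81 tested, had a median of 0.19, and the 12 genes of mitochondrial import one of −0.04. Tom7, a subunit of the outer membrane import complex, was at 270, 99.1 and 102 CPM in controls and at 211, 794 and 198 CPM in TRAP samples and overlapped (log2 fold change 1.35, edgeR adjusted p = 0.727).

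Tctp and the transcripts of RNA-binding proteins and axonal transport gave no call in edgeR. Tctp, which the study links to axonal mitochondria and axon development, was counted on the RNA-binding list but is not described there as an RNA-binding protein. It was at 1077, 561 and 532 CPM in controls and at 627, 1425 and 787 CPM in TRAP samples and overlapped (log2 fold change 0.39, edgeR adjusted p = 0.919). Of 27 neuronal RNA-binding protein genes and 18 axonal transport genes 0 passed. Among the latter, nudE, a partner of dynein, was at 85.4, 124 and 86.6 CPM in controls and at 31.6, 24.5 and 42.5 CPM in TRAP samples without overlap (log2 fold change −1.59, edgeR adjusted p = 0.249). The kinesin Klp68D was also below the controls in every TRAP sample (log2 fold change −1.97, edgeR adjusted p = 0.535). DESeq2 called both lower (adjusted p = 0.0156 for nudE and 0.0232 for Klp68D).

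The other tissues of the section were present in both genotypes. Muscle genes took 2.57%, 12.0% and 8.81% of the counts of controls 1 to 3 and 3.39%, 0.928% and 4.0% of those of TRAP replicates 1 to 3. Of 35 sarcomere and contraction genes 0 passed, 6 had an unadjusted p-value under 0.05, all lower, and the median was −1.02. Actn, the cross-linker of the Z-disc, was at 261, 643 and 497 CPM in controls and at 132, 66.5 and 246 CPM in TRAP samples without overlap (log2 fold change −1.66, edgeR adjusted p = 0.530). Fat body transcripts were also present, with 0 of 19 past the threshold and 5 lower at an unadjusted p-value under 0.05. Fbp2, a fat body protein, was at 219, 223 and 250 CPM in controls and at 65.2, 91.0 and 65.7 CPM in TRAP samples, a narrow spread in both groups (log2 fold change −1.64, SE 0.44, edgeR adjusted p = 0.268). The storage protein gene Lsp1alpha was at 238, 229 and 177 CPM in controls and at 69.0, 80.1 and 76.0 CPM in TRAP samples (log2 fold change −1.52, edgeR adjusted p = 0.332). Both were called lower by DESeq2 (adjusted p = 0.00195 for Fbp2 and 0.00218 for Lsp1alpha), which also called 1 of the 35 muscle genes lower. Glial genes differed widely in level. repo, the defining glial factor, was low. It reached at most 0.453 CPM in controls and 2.69 CPM in TRAP samples, and it was highest in TRAP replicate 1, as were 5 of the 15 glial genes. loco, which overlaps CR43474 and CR43475, was at 279, 167 and 149 CPM in controls and at 57.1, 127 and 149 CPM in TRAP samples (log2 fold change −0.83, edgeR adjusted p = 0.808). moody overlapped and nrv2 was below the controls in every TRAP sample without passing, and the list median was 0.03. No member passed in edgeR in the lists for trachea, haemocytes, gut, imaginal discs, testis, sensory neurons, neuropeptides, heat shock proteins, immune peptides, epidermis and postsynaptic muscle. The immune list was matched on the symbols in the files and lacks CG15068, the Bomanin gene that passed. In all, 29 of 34 lists held no gene that passed in either direction.

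**Figure D5:**
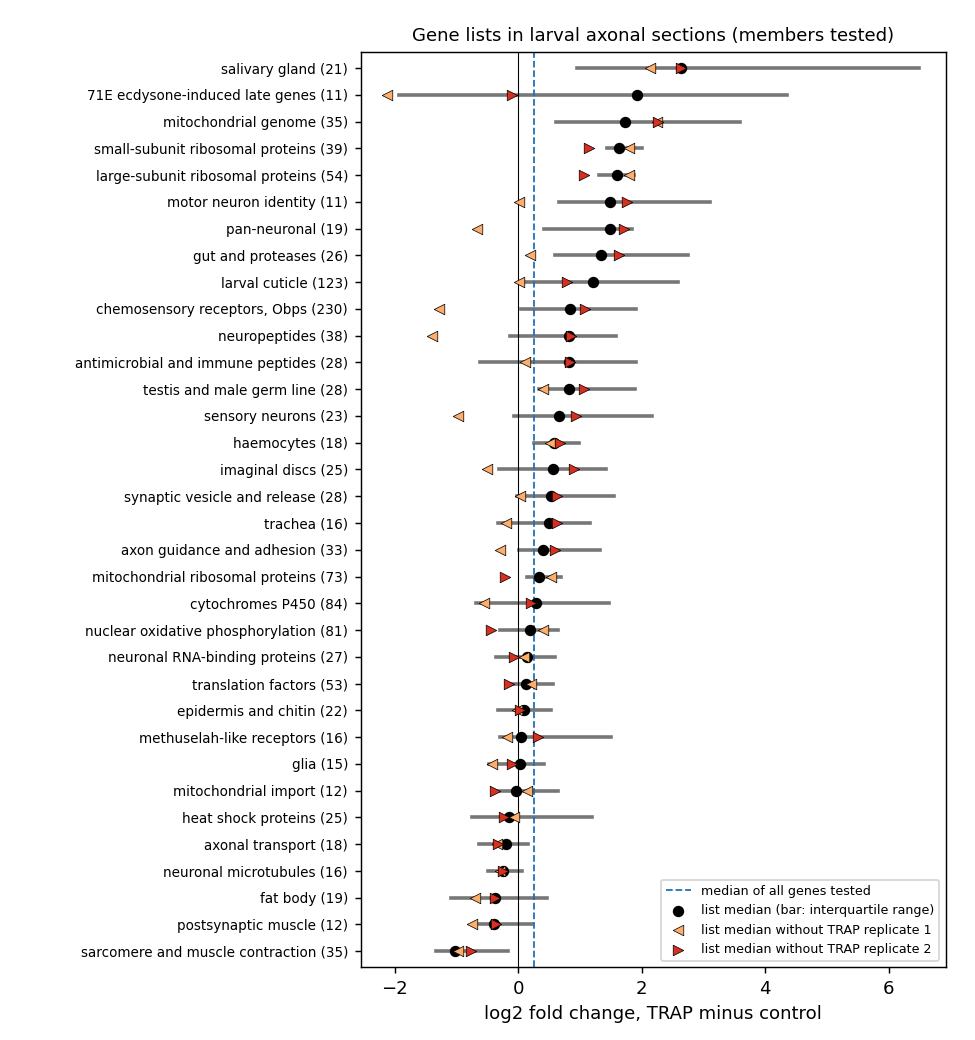
Median log2 fold change (TRAP minus control, black) with the interquartile range for each gene list, the number of members tested in parentheses, and the median without TRAP replicate 1 or 2 (triangles). The dashed line is the median of all genes tested, 0.25. The salivary gland list keeps a median above 2 in both refits, whereas the pan-neuronal list goes from 1.48 to −0.67 without TRAP replicate 1.

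The larval increases were compared with adult legs, where DIP-gamma-GAL4 drove the tag in 3 samples against 2 controls. Of the 39 genes, 11 had no count in any of the 5 leg samples, among them mthl8, Sgs1, Sgs3 and Sgs4, and Cyp6a17 was the only one that also passed in legs. For comparison, 14200 of the 16977 listed genes had at least 1 count in the leg samples. How many of these passed in legs is not at hand, so the overlap of calls has no background beside it. A test of the difference between the larval and the leg effect gave a positive larva minus leg difference in 2 of 16745 genes (0.0119%) and a negative one in 1 (0.00597%). None of them was among the 41 genes that passed in larvae. For sage the larval effect exceeded the leg effect by a log2 value of 6.30 (SE 1.41, edgeR adjusted p = 0.407), and for Cyp6a17 by 2.25 (SE 0.78, edgeR adjusted p = 0.891). No member of any of the 34 lists passed this test. Tissue, stage, driver and sequencing batch changed together between larvae and legs and cannot be told apart.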

How the data were processed

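The series holds 17 samples, and the 6 larval ones were analysed, with the 5 leg samples for the test of larva against leg. The authors amplified polyA RNA with SMART-Seq HT, used Trim Galore for adapter and quality trimming, HISAT2 2.2.1 for alignment to BDGP6, SAMtools 1.12 for the alignment files and SeqMonk for counting on genes. The deposited values are raw counts per gene. Whether reads or pairs were counted, and on which strand, is not given in the sources used here. Groups were taken from the sample titles and are biological replicates.

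Every gene with a count in any sample of a comparison was fitted with edgeR 4.0.16 (R 4.3.3, quasi-likelihood, TMM factors), and calls are at a Benjamini-Hochberg adjusted p-value under 0.05 over all genes tested. Larva against leg was an interaction term. DESeq2 1.42.0 was an alternative. The fits were tested on simulated data with a single dispersion for all genes in each run. Those data lacked the shifts between replicates described above, and no support for the calls is drawn from them. Coordinates are those of the files, and of 16977 genes 16872 had their identifier in the reference annotation, 16755 with identical coordinates. No 2 replicates agreed within sampling noise.

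Genes were named if the study names them for larvae, if they were among the 15 largest increases or the decreases (adjusted p-value under 0.05, at least 10 CPM in the higher group, no overlap between groups), if they were among the 4 smallest p-values of a list with at least 5 CPM, or if they mark a cell type. Not all genes taken by this rule are described, and a result is not reported here. The samples, lists and tests were chosen with earlier results of these data known.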

Additional observations from a re-analysis of the deposited data

Results flagged for a closer look

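The TRAP effect differed between larvae and legs in 3 genes (edgeR interaction term), and in none of them did the larval effect itself pass. CG14456 (chromosome 3L) had a larva minus leg difference of 13.92 on the log2 scale (standard error 1.65, adjusted p = 0.00542). It was under 1 CPM in every larval sample (at most 0.328 CPM in controls and 0.569 CPM in TRAP samples) and at 534 and 519 CPM in leg controls against at most 0.115 CPM in leg TRAP samples (leg log2 fold change −13.31, adjusted p = 7.61e-06). CG4576 (3R) had a difference of 6.90 (standard error 0.85, adjusted p = 0.00542). Its larval values of 72.3, 57.9 and 62.9 CPM in controls and 52.5, 51.8 and 36.6 CPM in TRAP samples did not pass (log2 fold change −0.46, adjusted p = 0.86). Neither did the leg effect (log2 fold change −7.41, adjusted p = 0.212). CG4576 was low in all leg samples, at 1.47 and 0.728 CPM in controls and at most 0.0154 CPM in TRAP samples. The size of its difference thus rests on leg values near 0. GILT3 (3R) had a difference of −4.31 (standard error 0.63, adjusted p = 0.0306) and lay at 20.5, 47.3 and 30.9 CPM in larval controls and at 30.7, 15.2 and 24.4 CPM in larval TRAP samples (adjusted p = 0.867). The leg effect of GILT3 did not pass either (log2 fold change 3.74, adjusted p = 0.0527). Its leg values were low, at 0.349 and 0.370 CPM in controls and at 4.71, 4.24 and 5.52 CPM in TRAP samples. Over the fits that left out 1 larval sample, the adjusted p-value of CG14456 rose to at most 0.148 (without TRAP replicate 1) and that of GILT3 to at most 0.229 (without control replicate 2), while CG4576 stayed at or under 0.0309. The 3 genes were chosen after their values were seen.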

How the results depend on the processing

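The counts of calls depended on the tool, the scaling and the samples. The 39 increases became 226 with DESeq2, 15 with library size only, 2 with edgeR's expression filter, 0 with a count required in every sample (492 with p under 0.05 before adjustment), 19 with a robust fit, 19 with larvae and legs in one model and 21 at an adjusted p-value under 0.01. The 2 decreases became 39, 1, 0, 0 (360 likewise), 2, 6 and 2 in the same order. Leaving out 1 sample gave 16 (without control replicate 1) to 148 (without TRAP replicate 1) increases and 2 to 33 decreases, and all 39 were among the 148. The 3 genes of the larva and leg comparison became 124 with DESeq2 and 0 with library size only (822 likewise), and 2 to 14 without 1 larval sample, the 14 being without TRAP replicate 1. Library size only moved the median of all genes from 0.25 to 0.02. Tctp reversed to −0.029 with it. Without TRAP replicate 1, VGlut, brp, Lim3, DIP-alpha and fne kept positive log2 fold changes (0.11 to 1.34) and 7 other neuronal genes turned negative, the range over the fits without 1 sample being −0.97 to 2.56 for futsch, −2.46 to 6.38 for Proc, −0.33 to 1.52 for elav, −1.28 to 1.14 for nSyb, −0.67 to 1.88 for Syt1, −1.78 to 3.42 for exex and −0.043 to 3.91 for eve. For Tctp it was −0.18 (without TRAP replicate 2) to 0.80. The cause of these changes was not tested.

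Replicate numbers are shared by the genotypes, but nothing says that they pair samples. After removal of group means, samples with the same number had correlations of −0.51, −0.27 and −0.00406, and no sample correlated best with its own number. As a replicate block, the numbers gave 44 increases and 5 decreases, and turned the log2 fold changes of futsch (−0.019), Proc (−0.66), nSyb (−0.52) and exex (−1.09). The library numbers in the labels pair only replicates 2 and 3, so that TRAP replicate 1 adds nothing. As a block they gave 122 increases and 88 decreases, and negative values for VGlut (−0.22), futsch (−1.85), Proc (−2.75), brp (−0.55), elav (−0.59), nSyb (−2.02), Syt1 (−1.11), exex (−2.92) and eve (−1.39). Values below 0.105 CPM in TRAP replicate 2 correspond to fewer than 3 counts, and Proc, exex, eve, mthl8 and fkh had at most 3 counts in 1 or more libraries.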
